A study of Rattus norvegicus with 6 samples.

Results

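Genes of the extracellular matrix and of fibrosis were followed in the renal cortex of rats given ethylenediamine dihydrochloride, a small diamine salt. The 42 genes were listed by symbol, for collagens, laminins and other matrix proteins, the enzymes that crosslink or cut the matrix, and the growth factors and receptors that drive fibroblasts. A probe was named for 33 of them through the RefSeq accession on the array, and 31 were tested among 11530 genes in all. No probe was named for Col4a2, Col4a3, Col5a2, Col6a1, Col6a3, Lamb1, Nid1, Hspg2 and Lox, which were not analysed here. The brightest probe over the 6 arrays stood for each gene. Levels are log2 signals relative to the 75th percentile of the array, so that 0 marks that percentile, and they are not compared between genes because probes differ in response. Every log2 fold change is ethylenediamine minus water and is followed by ± its standard error from limma, a linear model fitted to all genes at once, with n = 3 rats per group.

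All 6 rats were male Sprague-Dawley animals bought at 5 weeks of age and housed alike on a basal diet. Water was given to 3 of them, and the other 3 were dosed with ethylenediamine dihydrochloride (500 mg/kg/day), in either case over 4 weeks. Total RNA of the cortex was hybridised to 1-colour Agilent arrays, with 1 array per animal, and the comparison asks which transcripts differ after treatment. Between 35691 and 40843 of 61515 probes were well above background on an array, the lowest number on ethylenediamine replicate 1. On that array the probes below background on all 6 arrays averaged -6.46, against -7.29 to -7.04 on the others. This higher background makes its values for dim genes less sure. The 3 water arrays and ethylenediamine replicate 1 were on slide 1 and ethylenediamine replicates 2 and 3 on slide 2, scanned on another day, so the value within slide 1, which rests on 1 treated animal, is also given for the genes described singly where it differs by over 1.5 times, and for some others. The tissue label was checked against markers: all 8 proximal tubule markers and all 8 podocyte markers were well above background on every array. All 5 medulla markers were too, so the check cannot show that the tissue was cortex alone.

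The matrix of the kidney has 2 main parts. The interstitial matrix between tubules and vessels is built by fibroblasts and pericytes from fibrillar collagens, collagen VI, fibronectin, elastic fibres and small proteoglycans, and it is the part that accumulates in renal fibrosis. The basement membranes under tubules, endothelium and podocytes are sheets of collagen IV and laminin joined by nidogens and heparan sulfate proteoglycans. Transforming growth factor beta drives matrix synthesis and platelet-derived growth factor drives the growth of fibroblasts and pericytes, and matrix metalloproteinases, with their tissue inhibitors, govern turnover.

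The promoters of a fibrillar collagen and of a basement membrane collagen are shown as examples of the regulatory sequence of both parts. They are the 250 bases before the annotated start in RefSeq on GRCr8, on the plus strand, at chr4:33518307-33518556 for Col1a2 and chr16:84885347-84885596 for Col4a1. Capitals mark matches on either strand to any of 4 short motifs. These were TATAAA of the TATA box, the CCAAT box, the GC box GGGCGG, and CAGACA, which holds a SMAD element.
Col1a2: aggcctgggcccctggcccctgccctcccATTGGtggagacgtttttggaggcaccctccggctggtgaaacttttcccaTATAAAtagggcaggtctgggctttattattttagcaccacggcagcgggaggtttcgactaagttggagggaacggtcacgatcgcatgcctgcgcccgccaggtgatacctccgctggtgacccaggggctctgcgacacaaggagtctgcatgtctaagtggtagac
Col4a1: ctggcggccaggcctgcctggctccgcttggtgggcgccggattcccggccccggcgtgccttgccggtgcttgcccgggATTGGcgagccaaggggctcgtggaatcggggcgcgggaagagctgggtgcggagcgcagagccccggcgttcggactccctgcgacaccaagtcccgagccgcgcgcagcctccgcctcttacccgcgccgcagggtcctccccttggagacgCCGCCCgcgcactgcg
Col1a2 held TATAAA 170 bases and ATTGG, the reverse complement of CCAAT, 221 bases before the start, and Col4a1 held ATTGG at 170 bases and the GC box at 16 bases. The promoter table, with windows of 300 bases from 250 before to 50 after the start, held 18 of the 31 tested genes. TATAAA was in 1 of these 18 (14.2% of all 33469 windows), CCAAT in 4 (37.5% of all), CAGACA in 5 (21.1% of all) and GGGCGG in 8 (33.1% of all). Among interstitial genes 2 of 5 windows held GGGCGG, against 4 of 7 among basement membrane genes. A match is a description of the letters in the window only.

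By limma with Benjamini-Hochberg adjustment over all genes tested, 0 of the 31 matrix genes were called at an adjusted p under 0.05, where 0.0% of all genes were called. The smallest adjusted p among them was 0.38, for Col15a1. At an unadjusted p under 0.05 there were 3 matrix genes, all with higher signal in treated rats: Col15a1, Mmp14 and Col1a1. That is 9.68% of the 31, near the 10.4% of all genes at that p (5.39% higher and 4.97% lower). The same 3 genes were those whose 3 treated arrays all lay above the 3 water arrays, which is again 9.68%, against 17.5% of all genes with groups that did not overlap (9.2% higher and 8.27% lower). The count at an unadjusted p under 0.05 was 5 without ethylenediamine replicate 1, where 13.5% of all genes were at that p. It was 1 without ethylenediamine replicate 2 (8.33% of all genes) and 2 without any 1 of the water replicates (7.85% to 8.12%). The genes differed between these: without water replicate 3 they were Eln and Tgfb1, and without water replicate 2 Mmp14 and Tgfb2. Within slide 1, which holds 1 treated rat, the log2 fold changes of Col15a1, Mmp14 and Col1a1 were 0.37, 0.37 and 0.22. The 95% interval of the fold change lay within 2-fold, up or down, for 29 of the 31 genes and within 1.5-fold for 24. The other two were Tgfbi and Tgfb2, so for the rest a 2-fold change lay outside the interval, each interval taken alone. In bulk cortex, fewer cells of a type and less RNA per cell cannot be told apart.

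**Figure D1:**
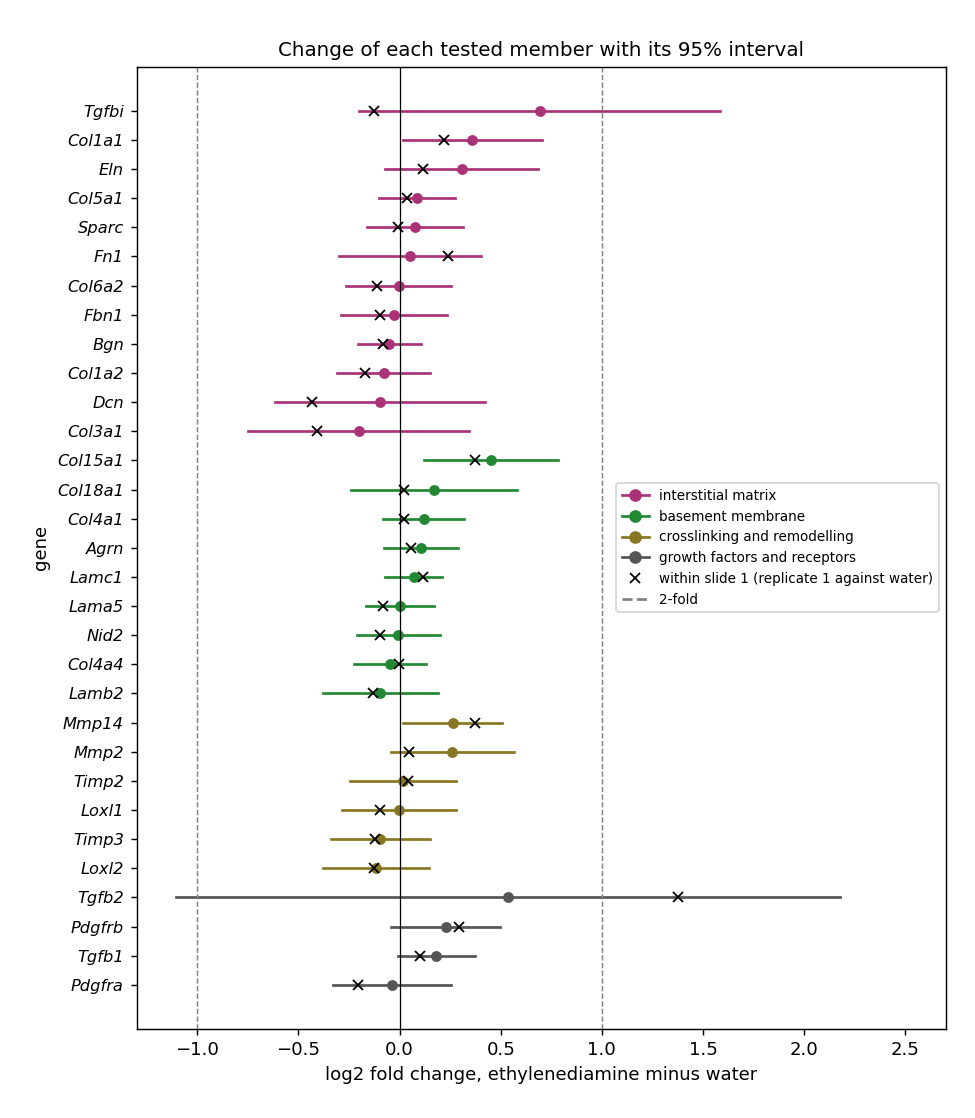
Log2 fold change of each of the 31 tested genes, ethylenediamine minus water (point), with the 95% interval of the limma fit (line), coloured by role. Crosses give ethylenediamine replicate 1 against the water mean within slide 1, and dashed lines mark 2-fold. The intervals of Col15a1, Mmp14 and Col1a1 exclude 0 when taken alone, and those of Tgfbi and Tgfb2 reach past 2-fold.

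Among the interstitial matrix genes 12 of 17 were tested, 6 with a positive and 6 with a negative log2 fold change. Their median log2 fold change was 0.02, against 0.00 over all genes tested, and it was -0.09 within slide 1. On treated replicates 1 to 3 the median distance of these genes from their water means was -0.09, 0.17 and 0.00. It was 0.11, -0.14 and 0.01 on water replicates 1 to 3, so the treated and water arrays covered much the same range. The median log2 fold change was -0.03 without water replicate 2 and -0.02 without ethylenediamine replicate 2.

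Col1a1, which encodes a chain of collagen I, the main fibrillar collagen of scar, stood at 1.40, 1.09 and 1.31 on water replicates 1 to 3 and at 1.49, 1.89 and 1.51 on ethylenediamine replicates 1 to 3. All 3 treated arrays lay above all 3 water arrays, with replicate 2 the highest. The log2 fold change was 0.36 ± 0.14, or 1.28-fold, with a limma p of 0.0426 and an adjusted p of 0.468 (0.345 to 0.866 over the alternatives). Within slide 1 it was 0.22. All 3 of its probes were on the same side, at 0.28, 0.31 and 0.36.

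Col1a2 encodes the other chain of collagen I and stood at 4.12, 3.84 and 3.998 on the water arrays and at 3.81, 4.001 and 3.91 on the treated arrays. The groups overlapped throughout, and the log2 fold change was -0.08 ± 0.09, with an interval from -0.31 to 0.15 and a value of -0.17 within slide 1. Col3a1, of the fibrillar collagen III that is laid down with collagen I, stood at 2.32, 1.598 and 1.94 on the water arrays and at 1.54, 2.06 and 1.64 on the treated arrays. Its log2 fold change was -0.20 ± 0.22, the lowest of the 31, with an interval from -0.75 to 0.34 and a value of -0.41 within slide 1.

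The changes of these partner chains were set against each other array by array, in 5 pairs chosen after their values were seen. With the water mean set to 0, Col1a1 minus Col1a2 was 0.00, -0.03 and 0.03 on the water arrays, and 0.39, 0.60 and 0.32 on the treated arrays. The mean difference was 0.44, with an SD of 0.03 among water and 0.15 among treated rats, and the 1 treated array on slide 1 was at 0.39. Each of the 6 pairings of a Col1a1 with a Col1a2 probe had treated arrays above all water arrays, with differences from 0.35 to 0.49, and their SDs among water rats ran from 0.03 to 0.11. Col1a1 minus Col3a1 gave 0.56, also without overlap of the groups. Col1a2 minus Col3a1 gave 0.12, Col4a1 minus Col4a4 gave 0.17, and Lamb2 minus Lamc1, a beta and a gamma chain of laminin, gave -0.16, each with groups that overlapped. Since the pairs were chosen for their values, these differences are a description. An exact permutation test was run on each pair. With 3 against 3 arrays its 2-sided p cannot fall under 0.1, so it could not decide on any of them.

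**Figure D2:**
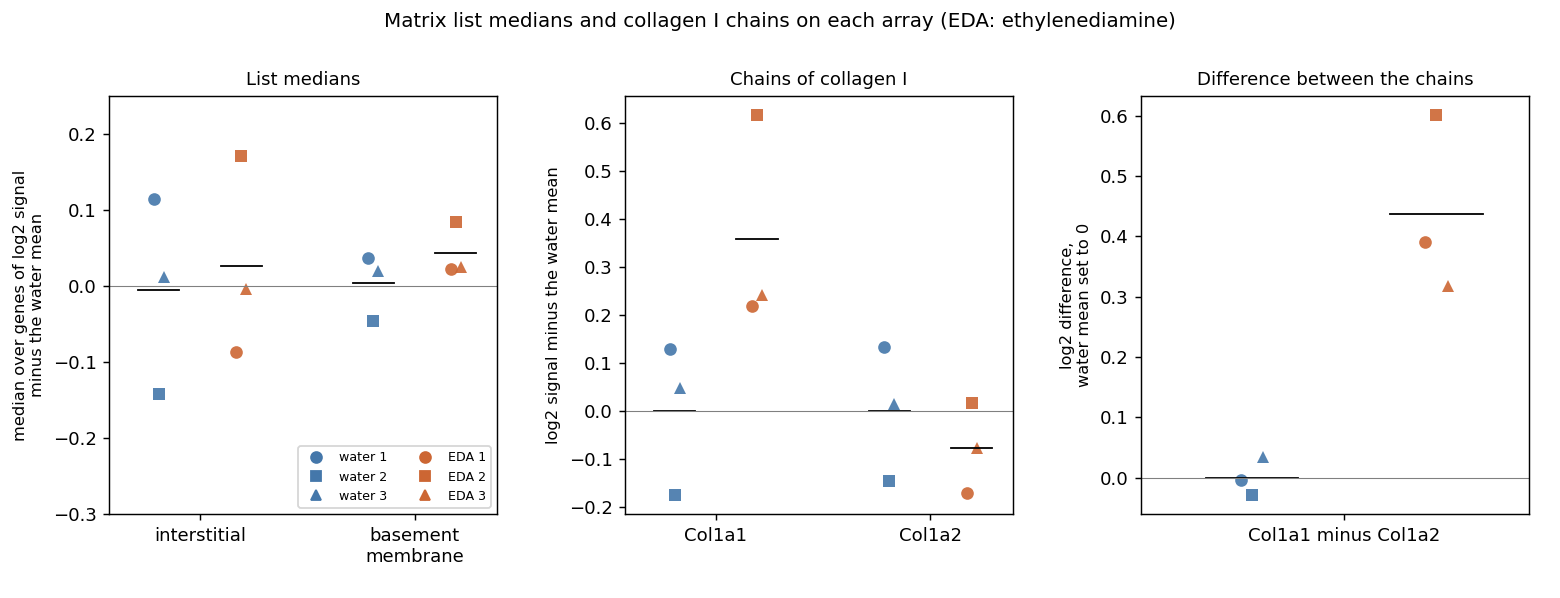
Per-array values of the 3 water arrays (blue) and 3 ethylenediamine arrays (orange, EDA), with symbols for the replicate number and black lines for the group mean. Left, the median over 12 interstitial and 9 basement membrane genes of log2 signal minus the water mean. Middle, the same distance for Col1a1 and Col1a2. Right, Col1a1 minus Col1a2, which lies within 0.03 of 0 on the water arrays and between 0.32 and 0.60 on the treated arrays.

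Tgfbi, a collagen-binding matrix protein induced by transforming growth factor beta, had the largest log2 fold change of the 31 at 0.69 ± 0.36 (limma adjusted p = 0.568). It stood at -0.31, -0.77 and -0.41 on the water arrays and at -0.62, 0.64 and 0.58 on the treated arrays. The pair of treated arrays on slide 2 was high and the treated array on slide 1 lay among the water arrays, where the difference was -0.13. Without ethylenediamine replicate 1 the log2 fold change was 1.104, and differences between the treated animals and between the slides cannot be told apart for this gene. Eln, which encodes elastin, stood at -0.89, -0.84 and -0.46 on the water arrays and at -0.61, -0.22 and -0.44 on the treated arrays. Its log2 fold change was 0.31 ± 0.15 and 0.12 within slide 1, and of its 3 probes, at -0.04, 0.31 and 0.31, the last 2 were positive.

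Fn1, which encodes fibronectin, stood at 1.77, 1.69 and 1.69 on the water arrays and at 1.96, 1.90 and 1.45 on the treated arrays. Treated replicates 1 and 2 lay above and replicate 3 below every water array, and the log2 fold change was 0.05 ± 0.14, and 0.24 within slide 1. Decorin (Dcn), a small proteoglycan that binds collagen fibrils, stood at 3.01, 2.51 and 3.06 on the water arrays and at 2.43, 3.03 and 2.83 on the treated arrays, and its log2 fold change was -0.10 ± 0.21, and -0.43 within slide 1. The other 5 tested interstitial genes were Col5a1 and Col6a2, of collagens V and VI, the fibrillin Fbn1, the proteoglycan biglycan (Bgn) and the collagen-binding glycoprotein Sparc. Their log2 fold changes ran from -0.05 to 0.09, with intervals between -0.29 and 0.32. A second, dimmer Col6a2 probe gave -0.29.

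Lumican (Lum), a fibril-binding proteoglycan, was well above background on 0 of 6 arrays. Periostin (Postn), a matrix protein of activated fibroblasts, was well above background on water replicate 3 and ethylenediamine replicate 3 alone. Its signals were -7.68, -7.41 and -4.15 on the water arrays and -6.64, -6.32 and -2.54 on the treated arrays, so 1 animal of each group stood apart, and it was not tested.

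The interstitial genes varied together between rats of the same group. Water replicate 2 was the lowest water array for 11 of the 12 tested interstitial genes, or 91.7%, against 35.0% of all genes and 4 of 9 basement membrane genes. Ethylenediamine replicate 2 was the highest treated array for 10 of the 12, against 31.7% of all genes and 6 of 9 basement membrane genes. All 6 tested macrophage and leukocyte markers were also lowest on water replicate 2 among the water arrays, while 3 of 9 fibroblast and myofibroblast markers were. Their part in the spread of the interstitial genes was not tested.

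**Figure D3:**
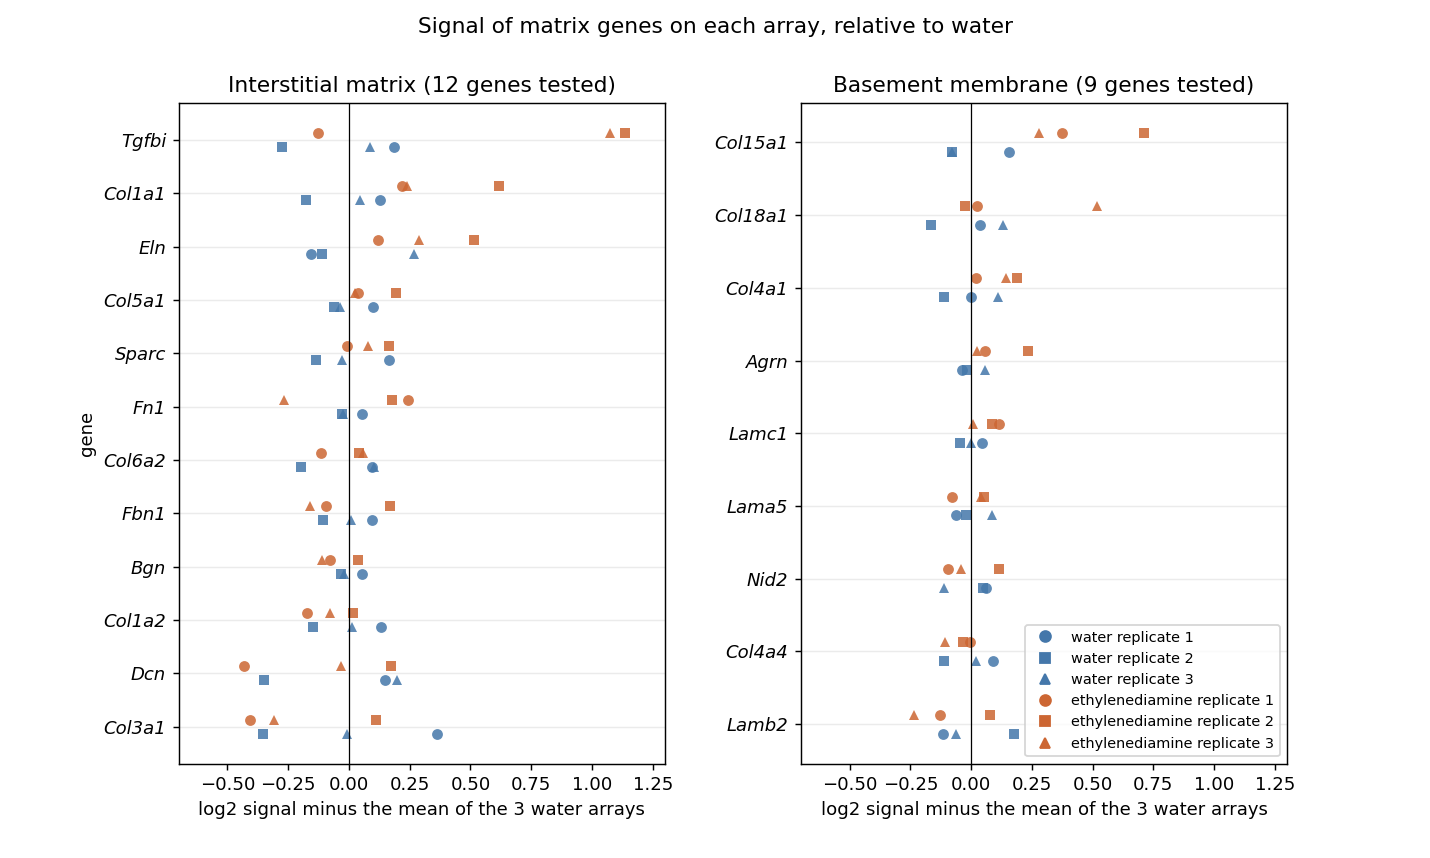
Log2 signal of each tested interstitial (left, 12 genes) and basement membrane gene (right, 9 genes) on each array, minus the mean of the 3 water arrays. Blue, water; orange, ethylenediamine; symbols give the replicate number. Water replicate 2 is the lowest water array for 11 of the 12 interstitial genes, and Tgfbi is high on ethylenediamine replicates 2 and 3 alone.

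Among the basement membrane genes 9 of 14 were tested, 6 with a positive and 3 with a negative log2 fold change, and their median was 0.07 (0.02 within slide 1). Their median distance from the water means was 0.04, -0.05 and 0.02 on the water arrays and 0.02, 0.08 and 0.02 on the treated arrays. The interstitial median minus the basement membrane median was -0.05 over all arrays. Array by array it was 0.08, -0.10 and -0.01 for water and -0.11, 0.09 and -0.03 for ethylenediamine. The treated range, from -0.11 to 0.09, and the water range, from -0.10 to 0.08, overlapped almost wholly. The value turned positive without ethylenediamine replicate 1, at 0.014, and without ethylenediamine replicate 3, at 0.048.

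Col15a1, of a collagen that anchors basement membranes to the interstitium, had the smallest p of the 31. It stood at 0.44, 0.21 and 0.20 on the water arrays and at 0.66, 0.99 and 0.56 on the treated arrays. Every treated array lay above every water array, and replicate 2 was again the highest. The log2 fold change was 0.45 ± 0.13, or 1.37-fold, with a limma p of 0.0155 and an adjusted p of 0.38 (0.295 to 0.748 over the alternatives). Within slide 1 it was 0.37, and a second probe gave 0.63 ± 0.12.

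Its close relative Col18a1, the source of endostatin, stood at 2.62, 2.42 and 2.72 on the water arrays and at 2.61, 2.56 and 3.10 on the treated arrays. Only treated replicate 3 lay above the water arrays, and the log2 fold change was 0.17 ± 0.17, and 0.02 within slide 1. Col4a1, of the collagen IV found in most basement membranes, stood at 4.35, 4.24 and 4.46 on the water arrays and at 4.37, 4.54 and 4.49 on the treated arrays. Its log2 fold change was 0.12 ± 0.08, and 0.02 within slide 1, and all 4 of its probes were positive, from 0.07 to 0.37.

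The other 6 tested basement membrane genes had log2 fold changes from -0.09 to 0.11, with intervals between -0.38 and 0.29. They were Col4a4, of the collagen IV network of the glomerulus, the laminin chains Lama5, Lamb2 and Lamc1, nidogen 2 (Nid2) and agrin (Agrn), a heparan sulfate proteoglycan of the glomerular basement membrane. A second Agrn probe stood at 0.22 ± 0.07. Podocytes and endothelial cells make much of this matrix. Of the 8 podocyte markers tested 6 were negative and 0 passed an unadjusted p under 0.05 by limma, with a median of -0.05. Of 9 endothelial markers 6 were negative and 1 was lower at that p, with a median of -0.10. Among all 11530 genes 5898 were negative, 10.4% were at that p and 4.97% were lower at that p.

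Of the 7 genes for crosslinking and remodelling 6 were tested, with a median log2 fold change of 0.01. Mmp14, a membrane-bound metalloproteinase that cuts collagen and activates the gelatinase Mmp2, stood at 2.06, 2.16 and 1.86 on the water arrays and at 2.40, 2.25 and 2.22 on the treated arrays. The treated arrays all lay above the water arrays. The log2 fold change was 0.26 ± 0.10, or 1.20-fold, with a limma p of 0.0391 and an adjusted p of 0.461 (0.394 to 0.686 over the alternatives). Within slide 1 it was 0.37, and a second probe gave 0.33 ± 0.11.

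Mmp2 itself stood at 0.91, 0.88 and 1.05 on the water arrays and at 1.00, 1.44 and 1.19 on the treated arrays. Both slide 2 arrays lay above the water arrays and the treated array on slide 1 lay among them. The log2 fold change was 0.26 ± 0.12, 0.05 within slide 1 and 0.37 without ethylenediamine replicate 1. Its second probe gave 0.04. Timp3, a matrix-bound inhibitor of metalloproteinases, stood at 1.41, 1.21 and 1.08 on the water arrays and at 1.11, 1.09 and 1.22 on the treated arrays, and its log2 fold change was -0.09 ± 0.10. The inhibitor Timp2 and the lysyl oxidase relatives Loxl1 and Loxl2, which crosslink collagen and elastin, had log2 fold changes from -0.11 to 0.02.

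All 4 genes for growth factors and receptors were tested, with a median log2 fold change of 0.21, and 0 of them passed an unadjusted p under 0.05 by limma. Tgfb1, the ligand most tied to fibrosis, stood at -2.46, -2.49 and -2.30 on the water arrays and at -2.32, -2.23 and -2.15 on the treated arrays. Treated replicates 2 and 3 lay above the water arrays and replicate 1 just below the highest of them. The log2 fold change was 0.18 ± 0.08 (limma adjusted p = 0.494), with an interval from -0.01 to 0.37, and within slide 1 it was 0.10.

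Tgfb2, a second ligand of the family, stood at -3.85, -2.12 and -4.36 on the water arrays and at -2.07, -3.45 and -3.20 on the treated arrays. Its high values were those of 1 water and 1 treated rat, water replicate 2 and ethylenediamine replicate 1, and the second kept probe put the same arrays highest, at -2.46 and -2.56. The log2 fold change was 0.54 ± 0.67, and it was 1.38 within slide 1, 0.26 with normexp background correction, and from 0.08 to 1.20 when a replicate was left out, the highest without water replicate 2 and the lowest without water replicate 3. On water replicate 3 that second probe stood at -4.95, close to the lowest signal well above background on the array, at -5.19.

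Pdgfrb, the receptor of pericytes and fibroblasts, stood at 0.45, 0.31 and 0.45 on the water arrays and at 0.70, 0.78 and 0.42 on the treated arrays. Treated replicates 1 and 2 lay above the water arrays and replicate 3 among them, and its log2 fold change was 0.23 ± 0.11 (limma adjusted p = 0.538) and 0.29 within slide 1. Pdgfra, the other receptor, gave a log2 fold change of -0.04 ± 0.12, and -0.21 within slide 1.

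**Figure D4:**
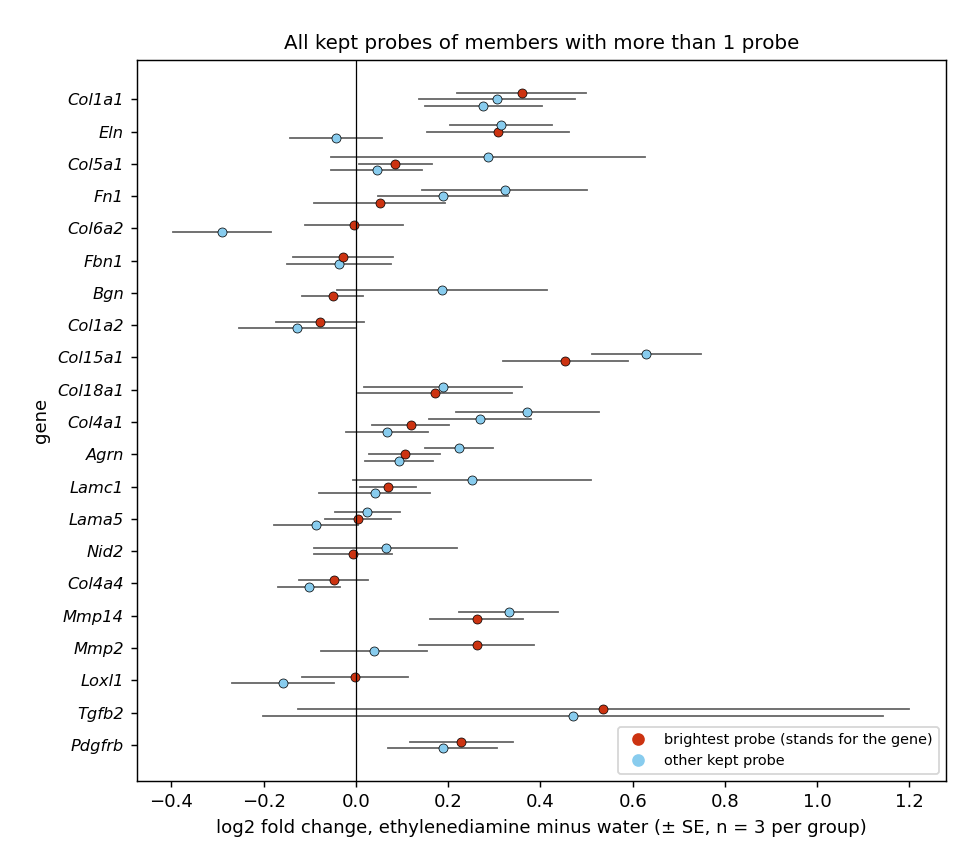
Log2 fold change, ethylenediamine minus water, of every kept probe of the 21 genes with more than 1 kept probe. Lines are ± SE (n = 3 per group), red marks the brightest probe and blue the others. The probes of Col1a1, Col15a1, Mmp14 and Col4a1 all lie above 0, and 4 genes have probes on both sides of 0.

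Of the 21 tested genes with more than 1 probe kept, 17 had all probes on 1 side of 0. The 4 with probes of opposite sign were Eln, Bgn, Lama5 and Nid2. Over all tested matrix genes 61 probes were kept, 41 of them with a positive log2 fold change.

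Other genes of the matrix pathways were counted in lists, of which 94 of 133 genes were tested and 0 were called by limma at an adjusted p under 0.05. On the axis of transforming growth factor beta, 1 of 18 genes was at an unadjusted p under 0.05, higher. Here and in the lists that follow, the share of all genes at that p was 5.39% higher and 4.97% lower, and 5632 of 11530 genes had a positive log2 fold change. This was Ltbp2, a latent TGF-beta binding protein family member of elastic fibres. It stood at -3.76, -4.27 and -3.84 on the water arrays and at -3.01, -2.56 and -2.11 on the treated arrays, which lay well apart. Its log2 fold change was 1.40 ± 0.26, or 2.64-fold (limma adjusted p = 0.329, and 0.134 to 0.555 over the alternatives), and 0.95 within slide 1. With normexp background correction the log2 fold change was 0.78. A second probe gave 1.26 ± 0.26. Ccn2, a target of this pathway also called connective tissue growth factor, stood at -0.16 ± 0.23, and at -0.59 within slide 1.

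For collagen synthesis and processing, an unadjusted p under 0.05 was met by 2 of 15 genes, both higher, with a median of 0.09 and 12 positive values. The lysyl hydroxylase Plod1 stood at 0.22 ± 0.08, and Colgalt1, which adds galactose to hydroxylysine, at 0.20 ± 0.07. The collagen chaperone Serpinh1 stood at 0.14 ± 0.13. Among 27 other matrix proteins 6 were higher and 2 lower at that p, with a median of 0.17 and 18 positive values. The laminin chain Lamc3 stood at -0.63 ± 0.13, the elastic fibre protein Efemp2 at 0.24 ± 0.06 and Col14a1, of a collagen on fibril surfaces, at 0.69 ± 0.20. The second Lamc3 probe gave -0.17 and the second Efemp2 probe 0.27. Lamc3 stood at -0.33 with normexp, and Col14a1 at 0.42 within slide 1. Of the others at that p, named with their values known, osteopontin (Spp1), which injured tubules also make, stood at 1.20 ± 0.40 (0.41 within slide 1). Vitronectin (Vtn) stood at 0.96 ± 0.31 (0.41 with normexp). It was well above background on 2 of 3 water and 3 of 3 treated arrays. Vtn, counted among the 6 higher genes, was thus kept only through the group where it was high. The lower gene Fbln5, of elastic fibres, stood at -0.35 ± 0.12, and Col7a1 at 0.50 ± 0.18 (0.20 within slide 1) and Mgp at 0.17 ± 0.06 were higher.

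Among 17 proteases and inhibitors 2 were higher and 1 lower at an unadjusted p under 0.05. The gelatinase Mmp9 stood at 0.55 ± 0.18, the inhibitor Timp1 at 0.37 ± 0.12 and Adam17, which sheds membrane proteins, at -0.18 ± 0.06. With normexp Mmp9 stood at 0.23 and was no longer at that p. On single arrays Timp1 stood at 1.16, 1.097 and 1.23 on the water arrays and at 1.28, 1.69 and 1.64 on the treated arrays, so its distance from water within slide 1 was smaller, at 0.11. Mmp7, made by injured tubules, was well above background on 0 of 3 water and 1 of 3 treated arrays and was not tested. Of 14 matrix receptors the integrin chain Itga8 was the 1 gene at that p, at 0.19 ± 0.07, and of 3 PDGF ligands it was Pdgfc, at -0.32 ± 0.11 (-0.13 within slide 1).

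Col1a1 and Col15a1, with treated arrays above all water arrays, are set here beside markers of the contractile and fibroblastic cells that make them. Of 5 smooth muscle markers tested 4 were positive and 2 (Tagln and Myh11) had an unadjusted limma p under 0.05, both with higher treated signal, and the median was 0.41. Their summed level, on the linear scale relative to the 75th percentile, was 37.8 to 50.9 on the water arrays and 49.1 to 63.4 on the treated arrays, and Cnn1, Lmod1 and Myocd were well above background on at most 1 array of a group. Tagln, an actin-binding protein of smooth muscle, stood at 0.83 ± 0.10, and 0.76 within slide 1. Of 9 fibroblast and myofibroblast markers 7 were positive and 2 higher at that p, with a median of 0.16 and a summed level of 4.89 to 5.67 on the water and 5.76 to 7.16 on the treated arrays. Fap, of activated fibroblasts, was well above background on 0 of 6 arrays. Acta2, the smooth muscle actin of myofibroblasts and vessel walls, stood at 0.41 ± 0.09, and the mesenchymal filament protein vimentin (Vim) at 0.16 ± 0.11 (0.04 within slide 1). The part of these cells in the collagen values was not tested.

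Immune cells can also drive fibrosis. Of 6 macrophage and leukocyte markers 1 was positive, 0 passed an unadjusted p under 0.05 by limma, and the median was -0.04, with Cd68 at -0.04 ± 0.14 (0.10 within slide 1). Their summed level was 57.6 to 80.6 on the water arrays and 67.3 to 69.7 on the treated arrays. The podocyte gene Nphs1 stood at -0.16 ± 0.10 and the endothelial gene Pecam1 at -0.11 ± 0.10 (-0.04 within slide 1).

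Markers of tubule segments were counted in the same way, and no gene of these lists passed the adjusted threshold in the main setting. Of 6 injured tubule markers 3 were higher at an unadjusted p under 0.05 by limma, with a median of 0.73. Their summed level was 27.9 to 41.8 on the water and 37.7 to 54.5 on the treated arrays. Havcr1, which encodes kidney injury molecule 1, stood at 2.56 ± 0.46 (1.49 within slide 1). Its limma adjusted p was 0.329, and 0.0384 to 0.555 over the alternatives. It was well above background on 2 of 3 water and 3 of 3 treated arrays, so it was kept only through the group where it was high. Of 8 markers of the distal tubule and collecting duct 2 were lower at that p, with a median of -0.18, Calb1 at -0.89 ± 0.15 (-0.58 within slide 1) and Aqp2 at -0.57 ± 0.13. The summed level of 5 medulla markers was 131 to 162 on the water arrays and 96.6 to 110 on the treated arrays, without overlap. Most of that sum came from Aqp2, at log2 levels of 6.95, 7.21 and 6.88 on water and 6.59, 6.51 and 6.25 on treated arrays. The sum therefore largely restates the change of Aqp2. Of the 5 markers 2 were positive and 3 negative, with a median log2 fold change of -0.01. The part of these segments in the matrix values was not tested.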

How the data were processed

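Each deposited scanner file gives 1 intensity per spot on a linear scale, after the background subtraction and detrending of Agilent Feature Extraction. Its version was 10.7.1.1 per the file headers, and the submitters' processing notes name 10.7. The grid of probes was made for rn4, and arrays were not scaled to each other. The deposited table holds the same intensity divided by 1 factor per array (column medians 0.1076, 0.1053 and 0.1046 for water and 0.1062, 0.1104 and 0.1071 for ethylenediamine; linear and uncentred). It was an alternative only.

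Here log2 of the processed intensity minus each array's 75th percentile was used. Control spots (1439) and 22 flagged probes were left out, and 28194 of 61515 probes were named through RefSeq accessions (GRCr8 annotation, names only). A probe was kept if well above background on all 3 arrays of a group. The comparison of ethylenediamine with water used limma 3.58.1 under R 4.3.3 (lmFit, eBayes, 4 residual and 1.84 prior degrees of freedom, Benjamini-Hochberg adjustment over 11530 genes, threshold 0.05), tested on simulated data. The number of arrays limits the precision. Normexp used median spot signals, offset 50.

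Values on each array are given for genes at an unadjusted p under 0.05, the 2 largest changes per role and a set named by hand, with up to 3 genes per pathway list; Col1a2, Dcn and Eln were added with their values known. The genes and lists were chosen with earlier results of these data known. Alternatives were the background correction, scaling, deposited values, filter, probe choice, slide, variance model, array weights, replicate block and leaving out each replicate.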

Additional observations from a re-analysis of the deposited data

How the results depend on the processing

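The count of all genes called was 0 by limma in the main setting and under 14 of 20 alternatives. It was 10 with the slide as a fixed block, 6 within slide 1, 1 with an intensity trend, 4 with every probe tested alone, and 0 to 1 when a replicate was left out; the cause was not tested. No matrix gene was among the genes called under the gene-level settings. The number of matrix genes at an unadjusted p under 0.05 was a count chosen after seeing the data. It was 3 in the main setting (10.4% of all genes), 5 with normexp (9.89%) and 1 with quantile scaling (10.5%). With no filter it was 1 (7.29%), and with a slide term 1 (7.63%). It was 1 to 5 when a replicate was left out. Without ethylenediamine replicate 1 there were 5 (Tgfbi, Mmp2, Col15a1, Col1a1 and Tgfb1), where 13.5% of all genes were at that p. Without ethylenediamine replicate 2 there was 1 (Col15a1), against 8.33% of all genes. Col15a1, Mmp14 and Col1a1 kept a positive sign under all 19 alternatives run for each.

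The interstitial median stayed within 1 replicate SD under all 17 alternatives, from -0.09 to 0.07, on both sides of 0. The basement membrane median was 0.12 with the mean of all kept probes of a gene, 0.022 both with a slide term and within slide 1, and 0.010 to 0.086 when a replicate was left out. The interstitial minus basement membrane value ran from -0.11 to 0.05, positive without ethylenediamine replicate 1 or 3. Tgfbi turned to -0.13 and Cd68 to 0.10, each both with a slide term and within slide 1. With a replicate left out, Col18a1 ran from -0.0010 to 0.27, Fn1 from -0.044 to 0.21, Dcn from -0.27 to 0.070, Ccn2 from -0.39 to 0.047 and Cd68 from -0.15 to 0.074.

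Same-numbered animals did not deviate together (r of 0.00, 0.02 and -0.01 over 11530 genes). Such values cannot show whether the animals were paired by design, so the replicate block was an alternative only. With the replicate block, limma called 0 genes. At an unadjusted p under 0.05 there were 2 matrix genes, Col15a1 and Mmp14, where 8.22% of all genes were. Depth of signal limits Postn, Lum and Mmp7, which lay near or below background, and Havcr1, which did so on the water arrays. It also limits Vtn, well above background on 2 of 3 water arrays.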
